A study of Homo sapiens with 3 samples.

Results

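The genes described here make cholesterol and fatty acids or regulate their making. They were chosen by name as 29 genes of these pathways, and all 29 stood in the deposited table, 1 row each, among 30866 distinct gene symbols. By role they comprised 7 genes of the mevalonate steps, 9 genes of the steps between squalene and cholesterol, 5 genes of fatty acid synthesis and elongation, 3 desaturase genes, 4 genes of the SREBP factors and their INSIG regulators, and STARD4, a sterol carrier. All 29 reached 1 FPKM in at least 1 library, the limit for a gene to be compared. The values are FPKM as deposited, fragments scaled by transcript length and by the mapped total of the library.

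RNA was sequenced from HCC827, an established human line of non-small cell lung cancer whose growth depends on a mutant EGF receptor. The cells of all 3 populations were a polyclonal pool that carried the ClonTracer barcode library. The dual-resistant population came out of the erlotinib-resistant population after 10 more days, spent in 0.2 µM crizotinib, which inhibits the MET kinase, together with 2 µM erlotinib. The erlotinib-resistant population had spent 47 days in 2 µM erlotinib, which inhibits the EGF receptor kinase. The vehicle population had spent 4 days in 0.1% DMSO. Each population gave 1 library, so the differences below have neither an error nor a test. Calls of higher and lower go by size only, at 2-fold or more on the FPKM + 1 scale. Resistance, drug and length of treatment differed together between the populations and cannot be told apart. Nor can, in such bulk RNA, fewer cells that express a gene be told apart from less RNA of it per cell.

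Cholesterol is built from acetyl-CoA by way of mevalonate, farnesyl diphosphate and squalene, and fatty acids are built from the same acetyl-CoA by fatty acid synthase and then lengthened and desaturated. Both routes are switched on by the SREBP transcription factors, which sit in the membrane of the endoplasmic reticulum and are released when sterols are scarce. INSIG proteins hold them back when sterols are plentiful. SREBF2 encodes the form best known for sterol genes and SREBF1 the forms best known for fatty acid genes. Growing tumour cells, lung cancer lines among them, commonly make their own lipids for new membranes.

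The 7 epithelial markers (EPCAM, CDH1, KRT7, KRT8, KRT18, KRT19 and NKX2-1) were all at or above 1 FPKM in the 3 libraries, and their summed level was 2320 FPKM in dual-resistant cells, 5240 in erlotinib-resistant cells and 5088 in vehicle cells. Each of them was lowest in dual-resistant cells, from EPCAM at 41.1, 345 and 306 FPKM to KRT8 at 542, 573 and 905 FPKM. The 3 endothelial markers summed to at most 0.636 FPKM. The 5 immune markers summed to 67.1, 116 and 49.6 FPKM, nearly all of it CD68, while CD3E was listed at 0 in the 3 libraries and PTPRC stayed at or below 0.137 FPKM. Of 5 fibroblast markers 3, 1 and 1 reached 1 FPKM in dual-resistant, erlotinib-resistant and vehicle cells, with sums of 7.93, 2.55 and 3.90 FPKM. The 6 proliferation markers summed to 241, 240 and 163 FPKM. Of them MKI67, TOP2A, CCNB1 and BUB1 were higher in both resistant populations than in vehicle cells, TOP2A at 73.5, 88.2 and 14.1 FPKM. PCNA was lower in both, at 65.9, 56.3 and 87.6 FPKM, and MCM2 stood at 21.9, 26.0 and 25.2 FPKM. The part of these marker levels in the differences below was not tested. The FPKM of all rows summed to 494817, 528920 and 596084. Fragments were gauged roughly from low values of single-exon genes and from the shortest coding transcript of each gene. The values of the 29 genes above 0 then stood on about 85.8 fragments at least and about 2090 at the median.

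Of the 29 genes, 16 had their highest level in dual-resistant cells and 7 their lowest, against 35.9% and 38.1% of all 13365 genes with a value in every library. The 16 were also highest there after the sums of the libraries were made equal, where 45.3% of all genes were. Genes highest in dual-resistant cells thus made up a larger share of the 29 than of all genes, and genes lowest there a smaller share. These shares were not tested, and the 29 genes were chosen with earlier results of these data known. The shares therefore describe these 29 genes and not the pathways as a whole. The direction differed within the pathways. The genes highest in dual-resistant cells included ACLY, FASN, HMGCS1, SQLE, LSS and INSIG1, and the genes lowest there were MVK, PMVK, MVD, NSDHL, HSD17B7, SCD and SREBF1.

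**Figure D1:**
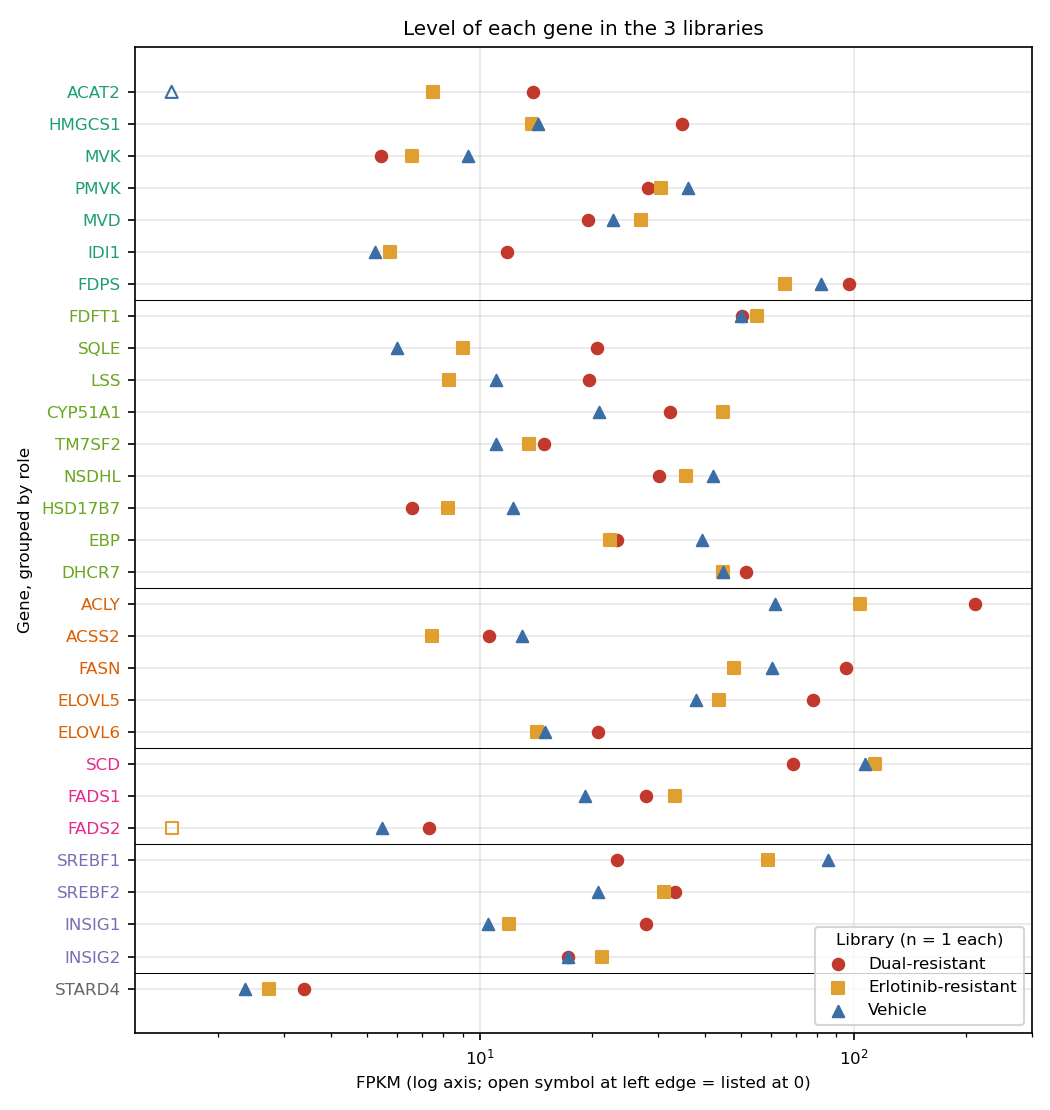
Level of each of the 29 genes in the dual-resistant (circle), erlotinib-resistant (square) and vehicle (triangle) library, in FPKM on a log axis, with 1 library per population and genes grouped by role. Dual-resistant cells lie well to the right for HMGCS1, SQLE, INSIG1, IDI1 and ACLY and to the left for SREBF1, and the open symbols mark ACAT2 and FADS2 where they were listed at 0.

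Among the 4 regulators, SREBF1 was lower and INSIG1 higher by 2-fold or more in dual-resistant cells than in either other population. SREBF1 (Entrez ID 6720, GRCh37 chromosome 17 from 17714663 to 17740325) stood at 23.3 FPKM in dual-resistant cells, 59.1 in erlotinib-resistant cells and 85.3 in vehicle cells. It was highest in vehicle cells and lowest in dual-resistant cells, by a log2 difference of -1.31 in dual-resistant versus erlotinib-resistant cells, -0.52 in erlotinib-resistant versus vehicle cells, and -1.83 over both. SREBF2 (Entrez ID 6721, GRCh37 chromosome 22 from 42229106 to 42302375) stood at 33.3, 31.2 and 20.7 FPKM, with log2 differences of 0.09, 0.57 and 0.66 in the same order, none past 2-fold. The order of the 2 genes therefore turned round, with 0.699 FPKM of SREBF1 for each FPKM of SREBF2 in dual-resistant cells, against 1.90 in erlotinib-resistant cells and 4.12 in vehicle cells.

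INSIG1 and INSIG2 encode related proteins that retain the SREBP complex in the endoplasmic reticulum, and INSIG1 is itself a target of the SREBP factors. INSIG1 (Entrez ID 3638, GRCh37 chromosome 7 from 155089486 to 155101945) stood at 27.9 FPKM in dual-resistant cells, 11.96 in erlotinib-resistant cells and 10.6 in vehicle cells. Its dual-resistant level was 2.23-fold the erlotinib-resistant level and 2.50-fold the vehicle level, while the erlotinib-resistant and vehicle levels lay within 1.12-fold. INSIG2 stood at 17.2, 21.2 and 17.2 FPKM and was past the limit in no comparison. The ratio of INSIG1 to INSIG2 was 1.62 in dual-resistant cells, 0.564 in erlotinib-resistant cells and 0.614 in vehicle cells, so that INSIG1 was the higher of the pair in dual-resistant cells alone. These ratios within a library, and those given below, do not move with the scaling of a library and were chosen after the values were seen.

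**Figure D2:**
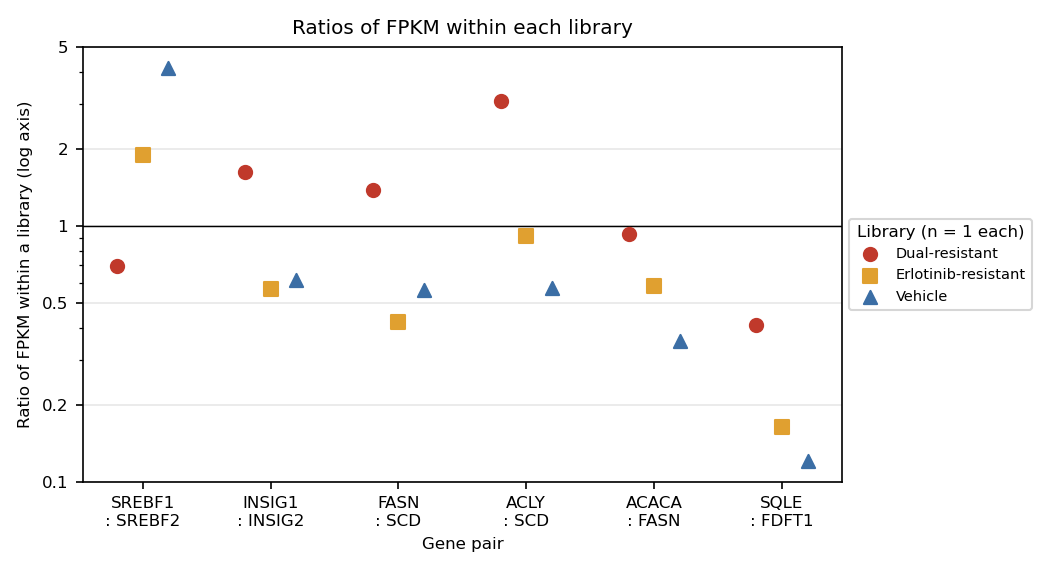
Ratio of the FPKM of 2 genes within the dual-resistant (circle), erlotinib-resistant (square) and vehicle (triangle) library, on a log axis, with 1 library each. The ratio of SREBF1 to SREBF2 lies at 0.699 in dual-resistant cells and above 1 in the other libraries, and the ratios of INSIG1 to INSIG2 and of FASN to SCD lie above 1 in dual-resistant cells alone.

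The promoter windows of the 2 factors, of INSIG1 and of the sterol gene HMGCS1 are shown. In dual-resistant cells SREBF1 was lower, and INSIG1 and HMGCS1 higher, than in the other populations, while SREBF2 was past 2-fold in no comparison. Each window runs from 250 bases before to 50 bases after a start site in RefSeq (build GRCh38.p14), and capitals mark the sterol regulatory element form TCACNCCAC and the box CCAAT, which reads ATTGG where it lies on the other strand.
SREBF2 (chr22:41832855-41833154, plus strand): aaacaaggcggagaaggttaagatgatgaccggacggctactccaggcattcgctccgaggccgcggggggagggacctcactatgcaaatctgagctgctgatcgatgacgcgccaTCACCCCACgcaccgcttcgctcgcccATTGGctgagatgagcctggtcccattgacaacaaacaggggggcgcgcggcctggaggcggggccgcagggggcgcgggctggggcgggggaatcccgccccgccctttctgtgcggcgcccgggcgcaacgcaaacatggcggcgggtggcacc
SREBF1 (chr17:17836937-17837236, minus strand): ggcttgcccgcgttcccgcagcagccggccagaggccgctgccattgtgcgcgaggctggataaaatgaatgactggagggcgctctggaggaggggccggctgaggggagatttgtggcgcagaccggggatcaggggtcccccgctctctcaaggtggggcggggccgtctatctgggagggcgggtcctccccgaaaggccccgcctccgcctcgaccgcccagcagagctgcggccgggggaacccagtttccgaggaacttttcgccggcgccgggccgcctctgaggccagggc
INSIG1 (chr7:155297628-155297927, plus strand): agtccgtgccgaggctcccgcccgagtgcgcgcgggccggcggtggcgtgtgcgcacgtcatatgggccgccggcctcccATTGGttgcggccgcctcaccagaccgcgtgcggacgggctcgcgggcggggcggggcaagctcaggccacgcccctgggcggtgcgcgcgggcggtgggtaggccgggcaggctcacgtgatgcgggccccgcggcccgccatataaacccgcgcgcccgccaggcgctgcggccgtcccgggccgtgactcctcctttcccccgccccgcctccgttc
HMGCS1 (chr5:43313363-43313662, minus strand, the window of its 2 that holds CCAAT): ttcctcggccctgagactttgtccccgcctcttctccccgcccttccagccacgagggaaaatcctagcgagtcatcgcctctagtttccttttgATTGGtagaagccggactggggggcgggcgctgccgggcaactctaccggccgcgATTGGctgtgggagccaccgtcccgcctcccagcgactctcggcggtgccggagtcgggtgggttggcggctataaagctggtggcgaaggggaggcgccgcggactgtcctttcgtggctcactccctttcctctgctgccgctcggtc

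Promoter windows were matched for 25 of the 29 genes, 33 windows in all, but not for ACAT2, FDFT1, SQLE and FASN. Each motif was searched on both strands. TCACNCCAC stood in the SREBF2 window, at position -133 from the start, and in no other window of these genes, against 396 of all 35116 windows (1.13%). The match in SREBF2 was also one to the classical sterol regulatory element, a longer form that contains it and stood in 16 of all windows (0.0456%). CCAAT, the box bound by NF-Y, which is known to act beside SREBP, stood in 21 of the 33 windows (63.6%), against 34.6% of all windows. By gene that was 19 of 25 (76%), against 42.1% of protein-coding genes. The 6 without it were CYP51A1, ELOVL6, FADS1, INSIG2, PMVK and SREBF1. SREBF1 was searched in 1 window only, so any other start site of that gene was not covered. The GC box GGGCGG stood in 29 windows (87.9%) against 45.0% of all windows, and the E-box CANNTG in 16 (48.5%) against 68.7%. By gene the GC box stood in 23 of 25 (92%) against 64.3% of protein-coding genes, and the E-box in 16 of 25 (64%) against 70.5%. These are matches of letters in a short window and were not tested against the expression values.

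In erlotinib-resistant cells versus vehicle cells, few of the 29 genes passed 2-fold. By the rule 2 were higher and 1 lower, against 3.81% higher and 6.03% lower of 13381 genes compared. CYP51A1, the lanosterol demethylase, was higher. The other calls were ACAT2 and FADS2, which rest on a value listed at 0. Without those 2 genes, 1 of 27 was higher and none lower, against 3.34% and 5.17% of genes above 0 in both libraries. The median log2 difference of the 29 was 0.08, against 0.00 over all genes compared. The sterol synthesis genes had a median of -0.02 and the fatty acid genes, desaturases included, of 0.01.

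CYP51A1 (Entrez ID 1595, GRCh37 chromosome 7 from 91741463 to 91808845) stood at 32.2 FPKM in dual-resistant cells, 44.7 in erlotinib-resistant cells and 20.9 in vehicle cells. Its erlotinib-resistant level was 2.09-fold the vehicle level, the largest such difference among the 27 genes above 0 in both libraries. FADS1, a desaturase of the polyunsaturated route, followed with 33.2 FPKM in erlotinib-resistant cells against 19.1 in vehicle cells. ACLY, which makes cytosolic acetyl-CoA from citrate, stood at 104 FPKM against 61.6. On the lower side, EBP, a sterol isomerase, had 22.3 FPKM in erlotinib-resistant cells against 39.3 in vehicle cells, a log2 difference of -0.79. ACSS2, which makes acetyl-CoA from acetate, had 7.45 FPKM against 13.0, a log2 difference of -0.73. These 4 stayed within 2-fold, and at 1.5-fold 4 of 29 genes were higher and 3 lower, against 12.4% and 14.3% of all genes compared, ACAT2 and FADS2 included.

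In dual-resistant cells versus erlotinib-resistant cells, 6 of the 29 genes were higher and 1 lower, against 10.1% higher and 7.22% lower of 13385 genes compared. The genes higher were HMGCS1, SQLE, LSS, ACLY and INSIG1, with FADS2, which was listed at 0 in erlotinib-resistant cells. SREBF1 was lower. Without FADS2, 5 of 28 were higher and 1 lower, against 9.5% and 6.55%. As shares, 20.7% of the 29 were higher and 3.45% lower. At 1.5-fold, 10 were higher and 2 lower, against 18.5% and 16.9% of all genes. The median log2 difference of the 29 was 0.20, against -0.03 over all genes.

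**Figure D3:**
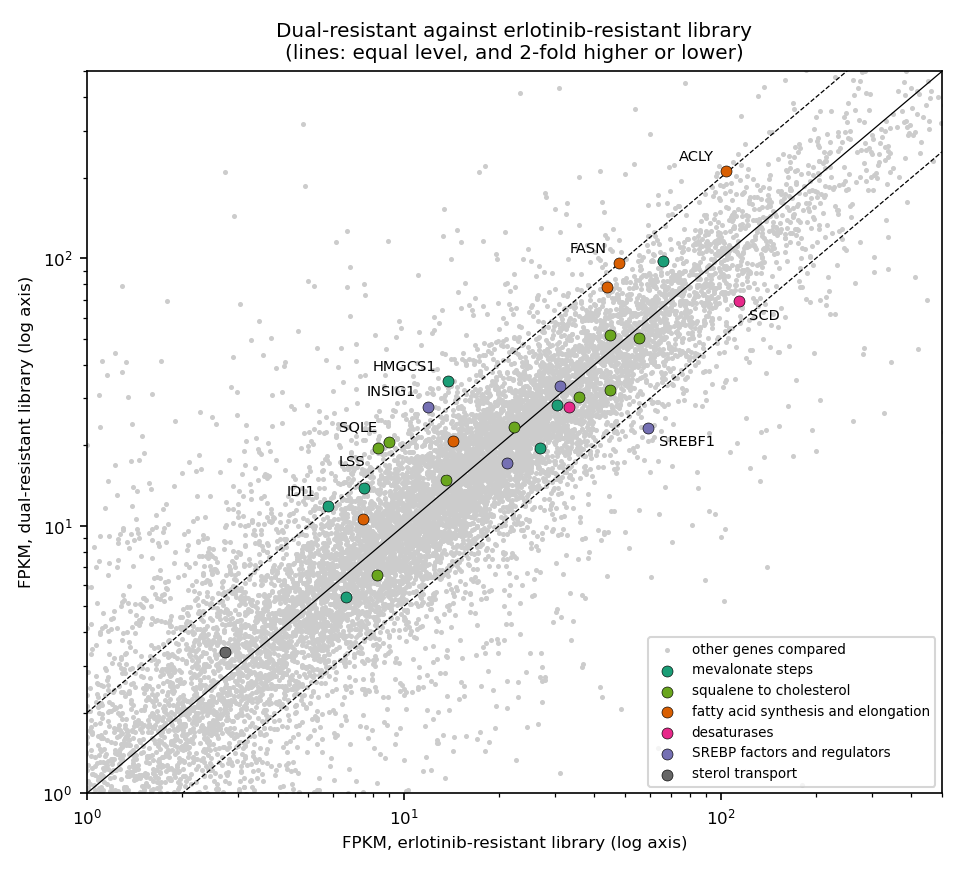
FPKM in dual-resistant cells (vertical) against FPKM in erlotinib-resistant cells (horizontal), both on log axes that start at 1, with the 29 genes coloured by role, all other genes compared in grey, and lines at equal level and at 2-fold. HMGCS1, INSIG1, SQLE, LSS and ACLY lie above the upper line, which is drawn without the added 1 FPKM of the calls and so also takes in IDI1, and SREBF1 lies below the lower line.

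In the mevalonate steps, the genes at either end had higher levels in dual-resistant than in erlotinib-resistant cells, by log2 differences from 0.56 to 1.27, and the 3 genes between them lower levels, by -0.10 to -0.45. HMGCS1 (Entrez ID 3157, GRCh37 chromosome 5 from 43289493 to 43313595), the HMG-CoA synthase, stood at 34.8 FPKM in dual-resistant cells, 13.8 in erlotinib-resistant cells and 14.3 in vehicle cells. It was 2.41-fold higher in dual-resistant than in erlotinib-resistant cells. ACAT2, the thiolase of the preceding step, stood at 13.9 and 7.52 FPKM in dual-resistant and erlotinib-resistant cells and was listed at 0 in vehicle cells, so no fold against vehicle is given. IDI1, which isomerises isopentenyl diphosphate, stood at 11.8, 5.77 and 5.24 FPKM in dual-resistant, erlotinib-resistant and vehicle cells. It was 1.89-fold higher in dual-resistant than in erlotinib-resistant cells and 2.06-fold higher than in vehicle cells.

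FDPS, the farnesyl diphosphate synthase, was the most abundant of these genes and stood at 97.3 FPKM in dual-resistant cells, 65.6 in erlotinib-resistant cells and 81.7 in vehicle cells. The kinases and the decarboxylase had no such pattern. MVK, the mevalonate kinase, stood at 5.43, 6.60 and 9.32 FPKM in dual-resistant, erlotinib-resistant and vehicle cells. PMVK, which phosphorylates the product of MVK, stood at 28.3, 30.4 and 36.0 FPKM, and MVD, the decarboxylase, at 19.5, 26.9 and 22.7 FPKM. All 3 had their lowest level in dual-resistant cells, within 2-fold of the others.

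Between squalene and cholesterol, SQLE and LSS, which act in succession, were the genes higher in dual-resistant cells. SQLE (Entrez ID 6713, GRCh37 chromosome 8 from 126010720 to 126034525), the squalene epoxidase and a control point of the route, stood at 20.6 FPKM in dual-resistant cells, 9.02 in erlotinib-resistant cells and 6.02 in vehicle cells. It was 2.16-fold higher in dual-resistant than in erlotinib-resistant cells and 3.08-fold higher than in vehicle cells. LSS (Entrez ID 4047, GRCh37 chromosome 21 from 47608360 to 47648738), the lanosterol synthase, stood at 19.6 FPKM in dual-resistant cells, 8.28 in erlotinib-resistant cells and 11.0 in vehicle cells, 2.22-fold and 1.71-fold higher in dual-resistant cells. FDFT1, the squalene synthase just before SQLE, differed little and stood at 50.2, 55.2 and 50.0 FPKM. There were thus 0.411 FPKM of SQLE for each FPKM of FDFT1 in dual-resistant cells, against 0.163 in erlotinib-resistant cells and 0.120 in vehicle cells.

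The 5 genes after CYP51A1 stayed within 2-fold in every comparison. DHCR7, the reductase of the last step, stood at 51.5 FPKM in dual-resistant cells, 44.8 in erlotinib-resistant cells and 44.8 in vehicle cells. TM7SF2, a sterol reductase, stood at 14.9, 13.6 and 11.1 FPKM in dual-resistant, erlotinib-resistant and vehicle cells. Lower in both resistant populations than in vehicle cells were NSDHL, HSD17B7 and EBP, which trim and rearrange the sterol ring. NSDHL stood at 30.2, 35.7 and 42.1 FPKM, HSD17B7 at 6.57, 8.21 and 12.3 FPKM, and EBP at 23.4, 22.3 and 39.3 FPKM. HSD17B7 and EBP were lower in dual-resistant than in vehicle cells by log2 differences of -0.81 and -0.73. Seen by group, 2 of these 9 genes were higher in dual-resistant than in erlotinib-resistant cells, with a median of 0.07, and 1 of the 7 mevalonate genes was, with a median of 0.56. Over all genes 10.1% were higher, with a median of -0.03, so the count of the mevalonate genes was near that share.

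All 5 genes of fatty acid synthesis and elongation had a higher level in dual-resistant than in erlotinib-resistant cells, by log2 differences between 0.45 and 1.02 and with a median of 0.82. The median over all genes was -0.03. Of the 5, 1 passed 2-fold (ACLY), against 10.1% of all genes. ACLY (Entrez ID 47, GRCh37 chromosome 17 from 40023179 to 40075272) stood at 212 FPKM in dual-resistant cells, 104 in erlotinib-resistant cells and 61.6 in vehicle cells. It was 2.03-fold higher in dual-resistant than in erlotinib-resistant cells and 3.40-fold higher than in vehicle cells. FASN (Entrez ID 2194, GRCh37 chromosome 17 from 80036214 to 80056106), the fatty acid synthase, stood at 95.7 FPKM in dual-resistant cells, 48.0 in erlotinib-resistant cells and 60.6 in vehicle cells. Its log2 difference of 0.98 between dual-resistant and erlotinib-resistant cells was just short of the limit and passed it, at 1.08, once the sums of the libraries were made equal. ELOVL5, which lengthens polyunsaturated fatty acids, stood at 77.9, 43.7 and 37.8 FPKM in dual-resistant, erlotinib-resistant and vehicle cells, 2.03-fold higher in dual-resistant than in vehicle cells. ELOVL6, which lengthens palmitate, stood at 20.8, 14.3 and 14.9 FPKM, and ACSS2 at 10.6, 7.45 and 13.0 FPKM, so ACSS2 alone of the 5 was below its vehicle level in dual-resistant cells.

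The 3 desaturases among the 29 genes differed in direction between dual-resistant and erlotinib-resistant cells. SCD (Entrez ID 6319, GRCh37 chromosome 10 from 102106772 to 102124588), which makes monounsaturated fatty acids, stood at 69.1 FPKM in dual-resistant cells, 114 in erlotinib-resistant cells and 108 in vehicle cells. Its dual-resistant level was the lowest, by a log2 difference of -0.72 versus erlotinib-resistant cells and -0.63 versus vehicle cells. FASN therefore stood at 1.39 times SCD in dual-resistant cells, against 0.420 times in erlotinib-resistant cells and 0.563 times in vehicle cells. FADS1 stood at 27.8, 33.2 and 19.1 FPKM in dual-resistant, erlotinib-resistant and vehicle cells, and FADS2, which acts in the same polyunsaturated route, at 7.34 FPKM in dual-resistant cells and 5.49 in vehicle cells. FADS2 was listed at 0 in erlotinib-resistant cells. STARD4, which carries sterols between membranes, had the lowest levels of the genes with values above 0, at 3.38, 2.73 and 2.36 FPKM.

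The levels of FADS2 and ACAT2 carry a further limit, because their rows overlap those of other genes and the strandedness of the libraries is not given in the sources used here. FADS2 overlaps FADS1 by 802 bases, and ACAT2 overlaps TCP1, which stood at 115, 85.6 and 131 FPKM in dual-resistant, erlotinib-resistant and vehicle cells, by 558 bases. A 0 can be a failed estimate: the erlotinib-resistant cells had 11 such zeros among 8227 genes that reached 5 FPKM in each of the other populations, and the vehicle cells 13 among 8401. Of the 29 genes, 10 overlap another row and 6 a row of at least 1 FPKM. SREBF1 overlaps RAI1 by 103 bases, and RAI1 stood at 26.3, 26.5 and 23.4 FPKM. RefSeq names pseudogenes of IDI1, FDPS, CYP51A1, HSD17B7 and SCD, and how reads were shared with them is not given, which leaves the levels of these 5 genes uncertain.

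**Figure D4:**
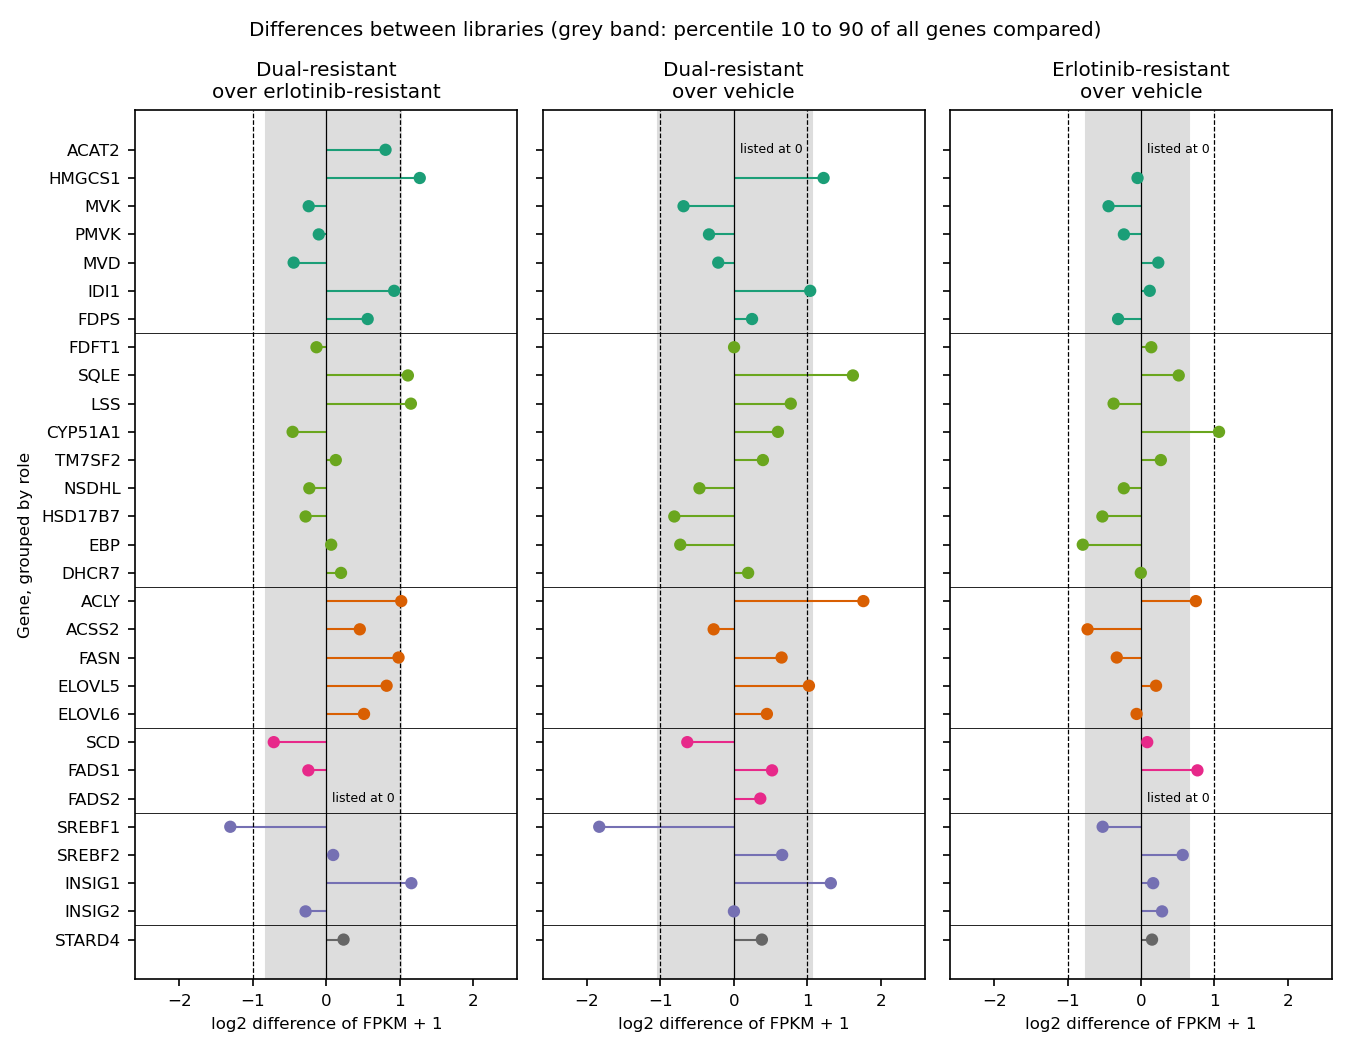
Log2 difference of FPKM + 1 for each of the 29 genes in dual-resistant over erlotinib-resistant cells, dual-resistant over vehicle cells, and erlotinib-resistant over vehicle cells, with dashed lines at 2-fold and a grey band from percentile 10 to percentile 90 of all genes compared. The 5 genes of fatty acid synthesis and elongation all lie to the right of 0 in the first panel, between 0.45 and 1.02, and SREBF1 lies furthest to the left in the first and second panels, at -1.31 and -1.83.

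In dual-resistant cells versus vehicle cells, 7 of the 29 genes were higher and 1 lower, against 11% higher and 10.4% lower of 13378 genes compared. The genes higher were HMGCS1, IDI1, SQLE, ACLY, ELOVL5 and INSIG1, with ACAT2, which was listed at 0 in vehicle cells, and SREBF1 was lower. Without ACAT2, 6 of 28 were higher and 1 lower, against 10.3% and 9.39%. At 1.5-fold, 11 were higher and 5 lower, against 20.7% and 20.6%. The median log2 difference of the 29 was 0.38, against -0.01 over all genes. Ranked among the 13365 genes, ACLY stood above 97.8% in dual-resistant cells, 94.7% in erlotinib-resistant cells and 89.1% in vehicle cells. SQLE stood above 69.0%, 45.7% and 36.7%, and HMGCS1 above 81.3%, 57.8% and 60.0%. These 3 genes therefore had their highest rank in dual-resistant cells. SREBF1 stood above 72.6%, 89.5% and 92.3%, with its lowest rank there. This comparison shares its libraries with the other comparisons and adds no independent values.

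Set against each other, the fatty acid genes (8 with the desaturases) had higher medians than the 16 sterol synthesis genes. In dual-resistant over erlotinib-resistant cells the median was 0.67 for the fatty acid genes and 0.10 for the sterol genes, so the sterol median was lower by 0.57. Leaving out FADS2 made that difference -0.42. With FADS2 kept, the medians were 0.82 for synthesis and elongation, -0.25 for desaturases, 0.56 for mevalonate steps and 0.07 between squalene and cholesterol. In dual-resistant over vehicle cells the sterol median was 0.22 and the fatty acid median 0.49. Both sets held genes on either side of 0, and the sterol genes ranged from -0.46 to 1.27 between dual-resistant and erlotinib-resistant cells. Summed over the 8 fatty acid genes, the level was 521 FPKM in dual-resistant cells, 365 in erlotinib-resistant cells and 320 in vehicle cells, and over the 16 sterol genes 460, 398 and 407 FPKM.

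Among the other genes of the sterol pathway, the sterol demethylase gene MSMO1 stood at 43.7 FPKM in dual-resistant cells, 30.7 in erlotinib-resistant cells and 28.6 in vehicle cells, within 2-fold. None of the 7 genes of SREBP processing was past 2-fold in any comparison. Among them the protease gene MBTPS1 stood at 39.0, 50.2 and 40.3 FPKM in dual-resistant, erlotinib-resistant and vehicle cells. Of all genes, 3.81% were higher and 6.03% lower in erlotinib-resistant versus vehicle cells. In dual-resistant cells the shares were 10.1% and 7.22% versus erlotinib-resistant cells, and 11% and 10.4% versus vehicle cells. A list of 7 genes is too small to be set apart from these shares.

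Of 9 genes of sterol uptake, trafficking and esterification compared in dual-resistant versus erlotinib-resistant cells, 2 were higher and 1 lower (median 0.72), against 10.1% and 7.22% of all genes. Versus vehicle cells 3 were higher and 1 lower, against 11% and 10.4%. MYLIP, a ubiquitin ligase that marks lipoprotein receptors for degradation, stood at 1.41 FPKM in dual-resistant cells, 8.45 in erlotinib-resistant cells and 8.76 in vehicle cells, and was the gene lower in both. The lipoprotein receptor genes VLDLR and LRP1 were 2.30-fold and 2.62-fold higher in dual-resistant than in erlotinib-resistant cells. SCARB1, a receptor for high-density lipoprotein, stood at 62.1, 32.2 and 27.1 FPKM in dual-resistant, erlotinib-resistant and vehicle cells. SOAT1, which esterifies cholesterol, stood at 30.2, 18.0 and 10.6 FPKM. The endosomal cholesterol exporter NPC1 stood at 55.7, 32.9 and 29.2 FPKM.

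Among the 6 genes of the LXR response and sterol efflux, 1 was higher and none lower in dual-resistant versus erlotinib-resistant cells, against 10.1% and 7.22% of all genes. In dual-resistant versus vehicle cells 1 was higher and 2 lower, against 11% and 10.4%, and in erlotinib-resistant versus vehicle cells none was higher and 2 lower, against 3.81% and 6.03%. The cholesterol exporter ABCA1 stood at 14.1 FPKM in dual-resistant cells, 4.51 in erlotinib-resistant cells and 6.58 in vehicle cells, summed over 2 rows. APOE, an apolipoprotein, stood at 3.20, 2.23 and 13.7 FPKM, and the exporter ABCG1 at 0.0267, 0.0143 and 1.24 FPKM. These 2 were the genes lower than in vehicle cells, and the filter of 1 FPKM fixed the direction of ABCG1. LPCAT3, a lysophospholipid acyltransferase, stood at 26.0, 14.8 and 8.34 FPKM and was 2.89-fold higher in dual-resistant than in vehicle cells.

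The list of other fatty acid synthesis genes held the step between ACLY and FASN. ACACA, the acetyl-CoA carboxylase that makes malonyl-CoA, stood at 88.6 FPKM in dual-resistant cells, 27.8 in erlotinib-resistant cells and 21.4 in vehicle cells. It was 3.11-fold higher in dual-resistant than in erlotinib-resistant cells and 4.00-fold higher than in vehicle cells. ACACA stood at 0.926 times FASN in dual-resistant cells, against 0.580 times in erlotinib-resistant cells and 0.354 times in vehicle cells. Of 20 genes of this list compared, 5 stood higher and none lower in dual-resistant versus erlotinib-resistant cells (median -0.02), against 10.1% and 7.22% of all genes. Beside ACACA these were the desaturase gene SCD5, at 8.51 FPKM in dual-resistant cells, 0.337 in erlotinib-resistant cells and 4.33 in vehicle cells, FADS3 (63.9, 16.4 and 33.3 FPKM), the dehydratase gene PTPLA, now HACD1 (5.74, 2.09 and 1.69 FPKM), and ELOVL2. ELOVL2 reached 1 FPKM in dual-resistant cells alone, at 2.22 FPKM, so the filter fixed its direction. PTPLAD1, now HACD3, of the same dehydratase family, was higher in dual-resistant versus vehicle cells, at 64.2 FPKM against 30.3. MID1IP1, whose product activates acetyl-CoA carboxylase, was lower in both resistant populations than in vehicle cells, at 21.0 FPKM in dual-resistant cells, 35.7 in erlotinib-resistant cells and 94.4 in vehicle cells.

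Downstream of synthesis, 3 of 14 genes of fatty acid activation, uptake and glycerolipid synthesis were higher and none lower in dual-resistant versus erlotinib-resistant cells (median 0.19), against 10.1% and 7.22% of all genes. They were ACSL1, which activates long-chain fatty acids, DGAT2, which makes triglyceride, and PNPLA3, which was listed at 0 in erlotinib-resistant and vehicle cells and stood at 3.03 FPKM in dual-resistant cells. PNPLA3 passed the filter through dual-resistant cells alone, which fixed its direction. ACSL1 stood at 15.6 FPKM in dual-resistant cells, 3.65 in erlotinib-resistant cells and 30.3 in vehicle cells, and DGAT2 at 11.0, 1.65 and 4.30 FPKM. ACSL4, which prefers polyunsaturated fatty acids, stood at 82.8, 71.3 and 34.7 FPKM. It was the 1 gene of the 14 higher in erlotinib-resistant versus vehicle cells, against 3.81% of all genes. Lower there were 3, ACSL1, DGAT2 and the related synthetase gene ACSL5 (3.47, 2.97 and 9.75 FPKM), against 6.03%. In dual-resistant versus vehicle cells ACSL4, DGAT2 and PNPLA3 were higher and ACSL5 lower, against 11% and 10.4% of all genes. Of 14 genes of fatty acid oxidation, SLC25A20, the carnitine carrier, was higher in dual-resistant versus erlotinib-resistant cells and none was lower (median 0.23), against the same shares of all genes. ECI1 and CPT1B were lower in dual-resistant versus vehicle cells, at 47.7 FPKM against 140 and at 1.86 FPKM against 6.71. They were 2 of the 14, with 0 higher, against 10.4% lower and 11% higher of all genes.

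**Figure D5:**
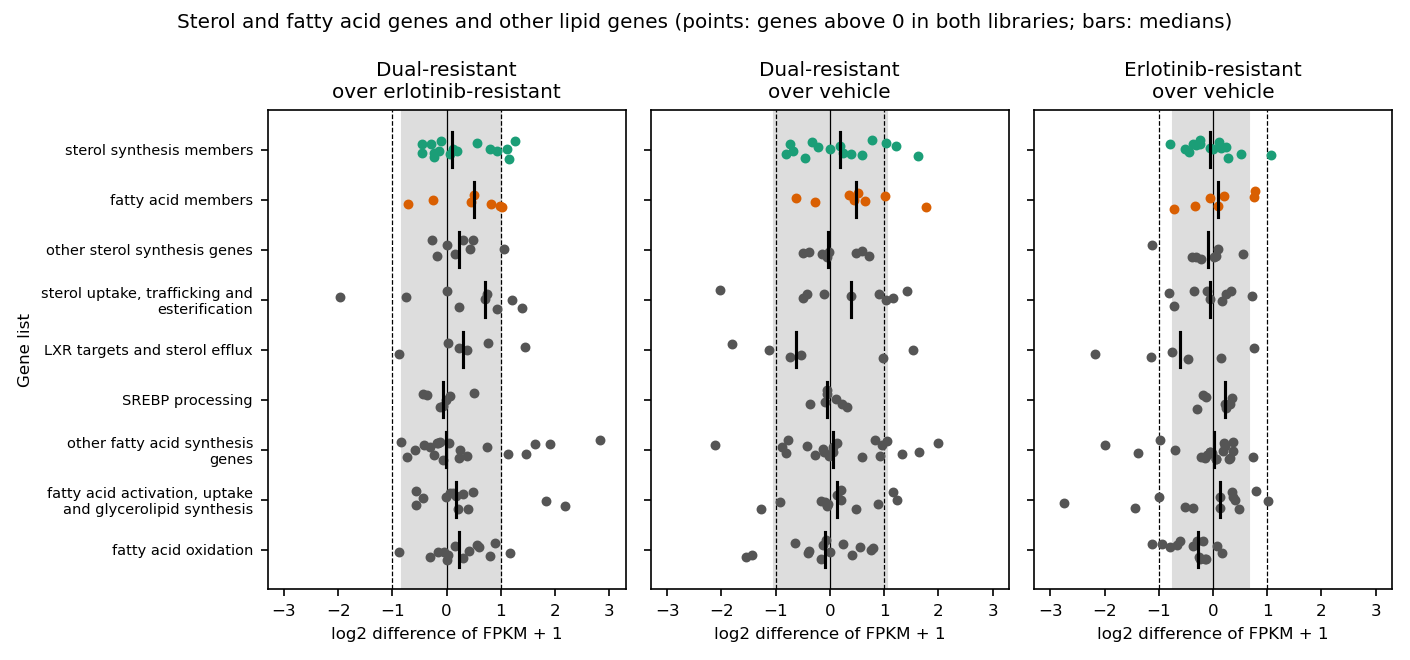
Log2 difference of FPKM + 1 for the sterol synthesis genes, the fatty acid genes and the 7 other lists of lipid genes, in the same 3 comparisons, with a point for each gene above 0 in both libraries, a bar at the median of those points, dashed lines at 2-fold and a grey band from percentile 10 to percentile 90 of all genes compared. In dual-resistant over erlotinib-resistant cells MYLIP in the uptake list lies near -1.97 and SCD5 in the fatty acid list near 2.83. The 7 genes of SREBP processing lie within 2-fold there, where 10.1% of all genes were higher and 7.22% lower.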

How the data were processed

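Gene expression was measured in 3 libraries, 1 per population of HCC827 cells. The authors deposited a table of FPKM per gene and library. Per the submitters' processing notes, the build was GRCh37 and the tools included TopHat 1.3 and Cufflinks 1.3. Gene set, settings and strandedness are not given in the sources. In the absence of counts, depth was gauged roughly from percentile 1 of the values above 0 of single-exon genes, scaled by length. A level of 1 FPKM over 1 kb came to about 43.1, 47.4 and 68.6 fragments in dual-resistant, erlotinib-resistant and vehicle cells. The fragments of each of the 29 genes were reckoned over its shortest coding transcript, and a longer transcript would give more. Starts were taken to count from 0 and are given from 1.

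Rows sharing a symbol were summed. Genes were kept where any library reached 1 FPKM, and log2 differences were computed on FPKM + 1 with Python 3.11.15 and pandas 2.3.3, a scale that understates the differences of low genes. A log2 difference of 1 or more was called. With 1 library per group no test was possible. The functions were tested on simulated data. The 29 genes, the lists and the pairs for ratios were chosen with earlier results of these data known. All 29 genes are named, and of the other lists each gene past 2-fold, with up to 3 others of high mean level. Of the lists, 1 gene past 2-fold is not reported here. Promoter windows and their motifs came from RefSeq, build GRCh38.p14. Alternatives were the pseudocount, scaling, filter, repeated rows, the limit and the genes listed at 0.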

Additional observations from a re-analysis of the deposited data

How the results depend on the processing

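No paired analysis was possible because each population has 1 library, and for the same reason no replicate could be left out. No call among the 29 genes changed its sign under another pseudocount, scaling, filter or handling of repeated rows. At a filter of 5 FPKM, STARD4 was not compared. The calls that changed sides were IDI1 in dual-resistant versus erlotinib-resistant cells, at 1.02 with a pseudocount of 0.1 FPKM, 1.04 with none and 1.01 with sums made equal, FASN there at 1.08 with that scaling and 1.04 with the median ratio set to 1, and LSS versus vehicle cells, at 1.03 with sums made equal. That scaling moved the median of the 29 genes to 0.26 in erlotinib-resistant versus vehicle cells and to 0.59 in dual-resistant versus vehicle cells, while the median of all genes moved to 0.14 and 0.22, and higher genes made up 53.7% in place of 38.7% and 66.0% in place of 51.3% of all calls.

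Leaving out genes listed at 0, an alternative chosen after seeing the data, or using no pseudocount, left 1 gene higher and 0 lower in erlotinib-resistant versus vehicle cells, and put the sterol median minus the fatty acid median at -0.42 and -0.44 in dual-resistant versus erlotinib-resistant cells. At a limit of 1.5-fold, 4 were higher and 3 lower in erlotinib-resistant versus vehicle cells, 10 and 2 in dual-resistant versus erlotinib-resistant cells, and 11 and 5 versus vehicle cells. At 4-fold, 1 gene was higher in each comparison, in each case ACAT2 or FADS2 beside a value listed at 0. Over all genes, 0.43% were higher in erlotinib-resistant versus vehicle cells, 2.92% in dual-resistant versus erlotinib-resistant cells and 3.17% in dual-resistant versus vehicle cells. In erlotinib-resistant versus vehicle cells FADS2 alone was lower, against 1.59% of all genes. In dual-resistant cells 0 were lower in either comparison, against 1.88% of all genes versus erlotinib-resistant and 3.50% versus vehicle cells.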
